A study of Mus musculus with 32 samples.

Results

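Isolated intergenic transcripts are chromatin-enriched RNAs that carry an intergenic prefix and a gene name, where no row of the table without a prefix carries that name. Some overlapped the named gene on its own strand, so RNA of that gene is not excluded. The prefix is the authors' class and not a strict position. They were taken from the authors' deposited table of 5723 RNAs that differed between wild-type (WT) and histone H1 triple knockout (TKO) mouse embryonic stem cells. A row was a member if its name carried the prefix for intergenic RNA, if its gene name occurred in no unprefixed row, and if that name occurred in at most 2 intergenic rows. Chromosomes 9 and 11 were left out, where 145 further transcripts met the rule on names. The rule found 969 members, out of 1937 intergenic transcripts and 5723 listed transcripts in all. The members carried 823 gene names, of which 677 occurred with 1 transcript and the others with a pair of transcripts, 292 in all. The members were selected on being listed as changed in this table, so their fold changes are given as a description and no test was made on them.

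H1 linker histones bind the nucleosome where DNA enters and leaves it and help to compact chromatin. Chromatin-enriched RNA (cheRNA) is the fraction that remains bound to chromatin when nuclei are washed with urea and a mild detergent, and it holds nascent transcripts and non-coding RNAs tethered near their site of synthesis. Many such RNAs come from intergenic sequence, where enhancers and remnants of transposable elements can start transcription on either strand. MapR locates R-loops, in which RNA is paired with one DNA strand, by a fusion of RNase H with micrococcal nuclease (RNH), and the nuclease alone (MNase-only) serves as its control.

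The series compares WT cells with H1-TKO cells, both grown in medium with serum and leukaemia inhibitory factor, and asks how H1 affects the lifetime of non-coding RNA bound to chromatin. The table rested on 3 cheRNA samples per genotype, and MapR on 2 RNH libraries and 1 MNase-only library per genotype. The labels do not say whether replicates came from separate cultures or how many clones a genotype holds. The table gives 1 log2 fold change per transcript, with no value per sample and no p-value, so no error can be attached to any cheRNA value below. Which genotype the fold change is relative to is also unstated. Transcripts of Hist1h1d, Hist1h1e and Hist1h1c, the H1 genes known to be deleted in such cells, had values of 5.02, 4.83 and 3.61 in the authors' deposited table. Every value was therefore given the opposite sign, so that positive means higher in TKO; this direction is inferred from those 3 genes. The libraries were stranded per the labels, so each transcript has a strand. In bulk samples, fewer cells with a transcript and less of it per cell cannot be told apart. The table gives differences and no levels, so the cell type could not be examined by the levels of stem cell markers.

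The starts of 8 members are printed because they carry the extremes of the description: the 3 largest increases, the 3 largest decreases, and the 2 transcripts whose lowest RNH peak enrichment over the 4 MapR libraries was highest. Each sequence covers 250 bases before and 50 bases from the transcript's 5′ end, read 5′ to 3′ on the transcript's strand from RefSeq's GRCm38.p6 (mm10), with CpG dinucleotides in capitals.
Stx18 transcript start, chr5:37971754-37972053, plus strand: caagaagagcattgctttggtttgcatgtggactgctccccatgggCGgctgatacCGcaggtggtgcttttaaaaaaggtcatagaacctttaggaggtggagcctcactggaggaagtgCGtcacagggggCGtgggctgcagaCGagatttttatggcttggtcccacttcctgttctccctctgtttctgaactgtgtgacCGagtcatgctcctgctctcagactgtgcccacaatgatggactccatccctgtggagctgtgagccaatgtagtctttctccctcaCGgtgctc
9430038I01Rik transcript start, chr7:137421558-137421857, plus strand: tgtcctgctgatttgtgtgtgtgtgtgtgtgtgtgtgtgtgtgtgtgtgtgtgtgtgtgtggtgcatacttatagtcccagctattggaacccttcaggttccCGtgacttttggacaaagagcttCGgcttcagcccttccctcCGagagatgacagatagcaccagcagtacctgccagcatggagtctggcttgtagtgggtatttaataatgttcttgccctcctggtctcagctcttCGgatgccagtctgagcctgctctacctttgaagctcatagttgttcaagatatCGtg
Creg2 transcript start, chr1:39654868-39655167, plus strand: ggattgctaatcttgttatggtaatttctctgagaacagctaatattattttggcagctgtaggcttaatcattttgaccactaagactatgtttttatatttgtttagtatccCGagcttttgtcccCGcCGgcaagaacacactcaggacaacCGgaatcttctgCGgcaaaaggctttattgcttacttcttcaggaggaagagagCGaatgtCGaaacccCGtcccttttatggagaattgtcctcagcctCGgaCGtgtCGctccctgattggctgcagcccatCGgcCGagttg
Usp27x transcript start, chrX:7429594-7429893, plus strand: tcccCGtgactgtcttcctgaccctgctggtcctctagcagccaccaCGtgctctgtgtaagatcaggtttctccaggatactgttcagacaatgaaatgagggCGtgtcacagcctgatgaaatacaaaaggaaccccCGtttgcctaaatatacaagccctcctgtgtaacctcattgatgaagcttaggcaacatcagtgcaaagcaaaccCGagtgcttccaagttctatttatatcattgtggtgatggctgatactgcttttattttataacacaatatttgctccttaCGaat
Hes1 transcript start, chr16:30077477-30077776, minus strand: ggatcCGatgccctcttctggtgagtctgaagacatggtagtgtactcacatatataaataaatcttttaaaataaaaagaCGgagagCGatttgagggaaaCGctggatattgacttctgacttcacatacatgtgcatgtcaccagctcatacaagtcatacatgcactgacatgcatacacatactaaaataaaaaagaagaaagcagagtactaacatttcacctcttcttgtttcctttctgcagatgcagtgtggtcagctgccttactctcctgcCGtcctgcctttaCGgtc
Zfp97 transcript start, chr17:17197161-17197460, minus strand: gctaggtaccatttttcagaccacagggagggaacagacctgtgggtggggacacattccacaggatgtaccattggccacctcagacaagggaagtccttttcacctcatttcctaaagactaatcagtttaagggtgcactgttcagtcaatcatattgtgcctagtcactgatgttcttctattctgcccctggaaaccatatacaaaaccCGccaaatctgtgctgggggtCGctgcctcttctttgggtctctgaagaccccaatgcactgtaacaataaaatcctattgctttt
Pgrmc2 transcript start, chr3:41082041-41082340, plus strand: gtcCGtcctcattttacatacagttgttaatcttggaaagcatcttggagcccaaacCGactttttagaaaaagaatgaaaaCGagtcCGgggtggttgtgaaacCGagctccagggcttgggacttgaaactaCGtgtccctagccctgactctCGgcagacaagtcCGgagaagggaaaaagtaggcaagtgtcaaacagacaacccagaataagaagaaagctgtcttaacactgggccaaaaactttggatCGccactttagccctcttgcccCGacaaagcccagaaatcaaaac
Nmbr transcript start, chr10:15791486-15791785, plus strand: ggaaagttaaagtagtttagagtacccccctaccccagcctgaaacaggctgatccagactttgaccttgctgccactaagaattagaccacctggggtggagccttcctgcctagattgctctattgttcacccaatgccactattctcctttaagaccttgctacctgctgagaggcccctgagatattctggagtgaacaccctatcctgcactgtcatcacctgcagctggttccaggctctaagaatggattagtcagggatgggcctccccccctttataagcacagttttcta

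Most of these starts lacked the CpG-dense sequence of a typical housekeeping promoter. The windows of the Stx18, 9430038I01Rik, Usp27x, Hes1 and Zfp97 transcripts held 7, 5, 6, 6 and 2 CpG. The window of the Nmbr transcript held 0 CpG. That of the Creg2 transcript held 13 CpG and lay wholly in sequence that the assembly marks as repeat (100.0% of its bases). It also contained TATAAA on at least 1 strand, as did the windows of the Usp27x, Hes1 and Nmbr transcripts.

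Across the members, starts were CpG-rich less often and repeat-marked more often than those of gene transcripts. A start window was called CpG-rich if its GC content exceeded 50% and its observed-to-expected CpG ratio exceeded 0.6. This held for 59 members (6.09%), against 32.1% of the 2442 listed gene transcripts, 21.7% of the 4842 listed transcripts of all classes outside chromosomes 9 and 11, and 33.3% of 32851 RefSeq promoters of the same length. Of the intergenic transcripts beside a changed gene 7.69% had such a start, and of the clustered ones 2.25%. The first base of 326 members (33.6%) lay in repeat-marked sequence, compared with 13.5% of gene transcripts and 21.8% of all listed transcripts. The share was 32.5% in clustered intergenic transcripts, 25.1% in those beside a changed gene and 33.4% in transcripts antisense within genes. Over the whole transcript, the median repeat-marked share was 28.1% in members and 20.6% in gene transcripts, while median GC content was 44.6% and 44.9%. TATAAA on either strand occurred in 19.7% of the members' windows, in 23.5% of those of clustered intergenic transcripts, in 15.2% of those of gene transcripts and in 13.6% of RefSeq promoters. None of these shares was tested, and a match describes letters only.

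By direction, a CpG-rich window occurred in 38 of the 742 higher members (5.12%) and in 21 of the 227 lower ones (9.25%). The start lay in repeat-marked sequence in 32.9% and 36.1%, respectively. Within the transcripts, GGACT, a frequent sequence context of N6-methyladenosine (m6A), occurred 0.912 times per kb on the transcribed strand and 0.879 times per kb on the opposite strand. AATAAA, the polyadenylation signal, occurred 0.853 and 0.972 times per kb on these strands. GGTAAG, which resembles a 5′ splice site, occurred 0.192 and 0.181 times per kb. The AATAAA difference was 0.0034 per kb, of the opposite sign, in the members outside every annotated gene.

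Higher levels in TKO prevailed among the isolated intergenic transcripts. In the authors' deposited table, read as TKO over WT, 742 of 969 members (76.6%) were higher in TKO and 227 were lower. The background was 58.9% higher among all 4842 listed transcripts outside chromosomes 9 and 11, and 67.4% among the 714 other intergenic ones. Since the same contrast chose the members, nothing is read from that gap. Of intergenic transcripts beside a changed gene 61.5% were higher, of clustered ones 74.9%, and of gene transcripts 44.0%. The 132 transcripts whose name occurred in 3 intergenic rows, which are just outside the rule, were higher in 72.0% of cases. Members whose name occurred once were higher in 77.1%, and members in pairs in 75.3%.

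The increases were also larger than the decreases. The median log2 fold change over all members was 2.05. It was 2.50 for higher members, a 5.66-fold increase, and -1.74 for lower members, a 3.34-fold decrease. The median was 1.36 over all listed transcripts, 1.87 over intergenic transcripts beside a changed gene and 2.41 over clustered ones. The median increase of higher transcripts was 7.05-fold beside a changed gene and 8.84-fold in clusters, both above that of the members. The median decrease of lower transcripts was 4.35-fold and 5.78-fold in these classes. Over all listed transcripts the median increase was 4.87-fold and the median decrease 3.4-fold, so larger increases were not particular to the members. An increase of at least 3 on the log2 scale was listed for 278 members and a decrease of that size for 29. Beyond 5 on the log2 scale lay 84 higher members and 1 lower member. Every listed transcript changed by at least 2-fold, and those nearest to that limit were the Tmco5 (1.00), Cep135 (1.01) and Gpr137b (1.01) transcripts, and the Mipep transcript, which decreased by 1.00. What lies under the limit was not analysed here.

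Shorter transcripts had larger listed increases. Members spanned 303 to 118583 bp, with a median of 7635 bp. Higher members had a median width of 7198 bp and lower members of 10050 bp. Among the 243 shortest members, up to 3567 bp, 83.5% were higher, with a median 10.6-fold increase. Among the 242 longest, from 15810 bp on, 67.4% were higher, with a median 4.34-fold increase. The 242 members of 3624 to 7635 bp lay between them at 76.4% and 5.67-fold, as did the 242 of 7642 to 15732 bp at 78.9% and 4.39-fold. The 3 longest members lay near the limit of the table, with log2 fold changes of -1.28 for the 118583-bp transcript named for Rngtt, 1.42 for the 117482-bp transcript named for Eef1e1, and -1.03 for the 111080-bp transcript named for Hrnr. Read depth and counts per transcript are unknown, so how precision varied with width was not tested.

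**Figure D1:**
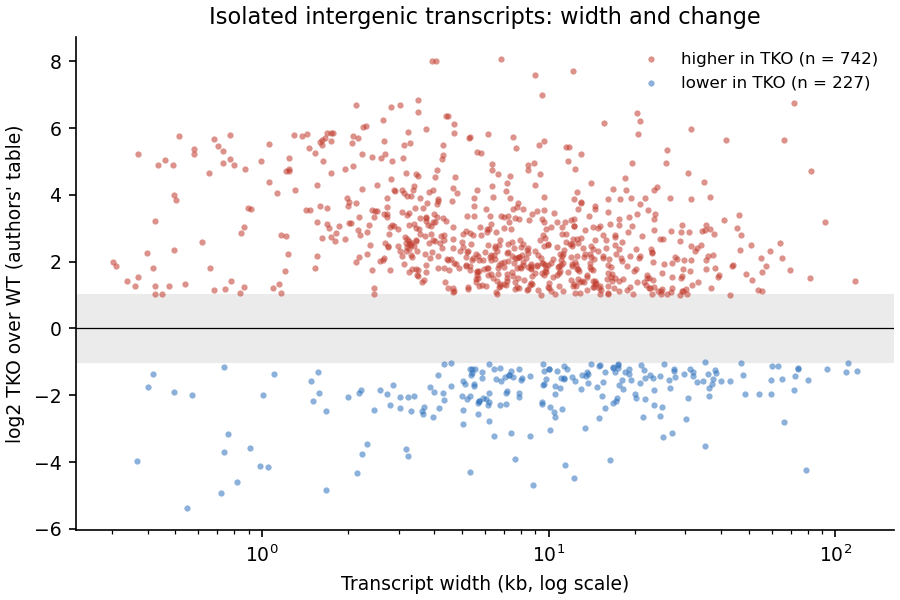
Each point is 1 of 969 isolated intergenic transcripts, by width (kb, log scale) and log2 TKO over WT in the authors' deposited table; the grey band between -1 and 1 holds no listed transcript. Points above log2 5 number 84 and points below -5 number 1, and the 3 longest transcripts lie near the band.

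The largest increase belonged to a transcript of 6818 bp named for Stx18, a syntaxin of membrane traffic at the endoplasmic reticulum. It lay at chr5:37972004-37978821, 59921 bp upstream of that gene and over no annotated gene, and its listed log2 fold change was 8.06 (268-fold). The closest other listed transcript lay 52873 bp away and was itself a member, named for Msx1, a homeobox factor of limb and craniofacial development, with 5.30. The 9430038I01Rik transcript followed with 8.02 and lay in sequence with no annotated gene. The transcript named for Creg2, at chr1:39655118-39659049, had 8.00 and lay over the annotated long non-coding RNA D930019O06Rik on the same strand. The transcript named for Amigo2, a neuronal adhesion protein, had 7.72 and lay over the long non-coding RNA Gm32885, 76909 bp from its named gene. The transcripts named for Flt1, a receptor for vascular endothelial growth factor, and Nrsn1 had 7.58 and 7.00, both without an annotated gene.

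The largest decrease, of -5.37 (41.5-fold lower), belonged to a 551-bp transcript named for Usp27x, a deubiquitinase, at chrX:7429844-7430394. It ran opposite to the non-coding gene 2010204K13Rik, 54014 bp from Usp27x. A 723-bp transcript named for Hes1, the repressor downstream of Notch, had -4.94 and lay 9008 bp downstream of that gene on the other strand. The Zfp97 transcript had -4.85, the Gm14920 transcript -4.70, the 1810011O10Rik transcript -4.61 and the Ccdc121 transcript -4.49. The last of these lay within Dnah14, a coding gene for an axonemal dynein, on the opposite strand, 103421 bp from Ccdc121. None of these 6 members, nor of the 6 with the largest increases, had an RNH peak in any MapR library. The same held for 67.5% of all members, so nothing is read from this.

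Not every member was intergenic by annotation. Against GENCODE M21, 435 members overlapped no annotated gene and 345 of them (79.3%) were higher, with a median log2 fold change of 2.34. Each other member was counted once, with coding genes on either strand taken before non-coding ones. Thus 192 overlapped a non-coding gene or pseudogene on the same strand and no coding gene, 152 of them higher. A further 164 overlapped a coding gene on the opposite strand only, with or without a non-coding gene, and 124 of them were higher. Another 87 overlapped only non-coding genes or pseudogenes on the opposite strand, 66 of them higher. The remaining 91 overlapped a coding gene on the same strand, and 55 of these (60.4%) were higher. In those 91, RNA of the coding gene and of an intergenic unit cannot be told apart in the table.

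The named gene was often distant. It lay apart from 775 members, at a median of 24139 bp, and overlapped 176. Members lay upstream of the named gene in 452 cases and downstream in 323, and for 18 members the named gene was not found on the same chromosome. The named gene was the nearest coding gene, or overlapped the member, for 799 members (82.5%). Members downstream of the gene and on its opposite strand were higher in 127 of 156 cases (81.4%), and members overlapping it on its strand in 29 of 40 (72.5%). The longest distance among the members named here was 1020886 bp, for the Nmbr transcript, so a gene name is a label of position and not of function.

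Annotated long non-coding RNA genes lay under 193 members on the same strand, of which 147 (76.2%) were higher. Among them, named after their values were seen, were Platr14, Platr6 and Platr9, transcripts annotated as associated with pluripotency. The members over them had log2 fold changes of 1.99, 1.89 and 1.67. The member over Mir17hg, the host of a microRNA cluster that promotes proliferation, had 1.03. Lower members included that over Ftx, an RNA of the X-inactivation centre, with -1.83, that over Halr1 beside the HoxA genes, with -1.30, and that over Mir9-3hg, a host of a neural microRNA, with -2.45. The annotation does not show that the listed RNA is the annotated one.

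The word isolated holds by name and less by position. Another listed transcript lay within 10 kb of 275 members (28.4%) and overlapped 93. No other listed transcript lay within 100 kb of 406 members (41.9%). A listed gene transcript lay within 10 kb of 18 members and within 100 kb of 166. Near neighbours shared a direction: 273 of the 275 members with a listed neighbour within 10 kb shared its direction, as did 95.5% of 2126 other listed transcripts with such a neighbour. Beyond 10 kb the nearest listed transcript shared the direction in 486 of 694 cases (70.0%), against 71.1% of 1747 other listed transcripts. Whether such neighbours are pieces of the same RNA was not tested.

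The share of higher members varied between chromosomes. It was highest on chromosome 13, at 49 of 53 members (92.5%), followed by chromosome 16 at 34 of 39 (87.2%) and chromosome 10 at 39 of 45 (86.7%). The lowest shares were found on chromosome X, at 26 of 44 (59.1%), and chromosome 3, at 22 of 36 (61.1%). On chromosome X the other listed transcripts were higher in 58.6% of cases, nearly the same share, while on chromosome 13 they were higher in 67.5%. With no value per sample, these differences have no replicate check.

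**Figure D2:**
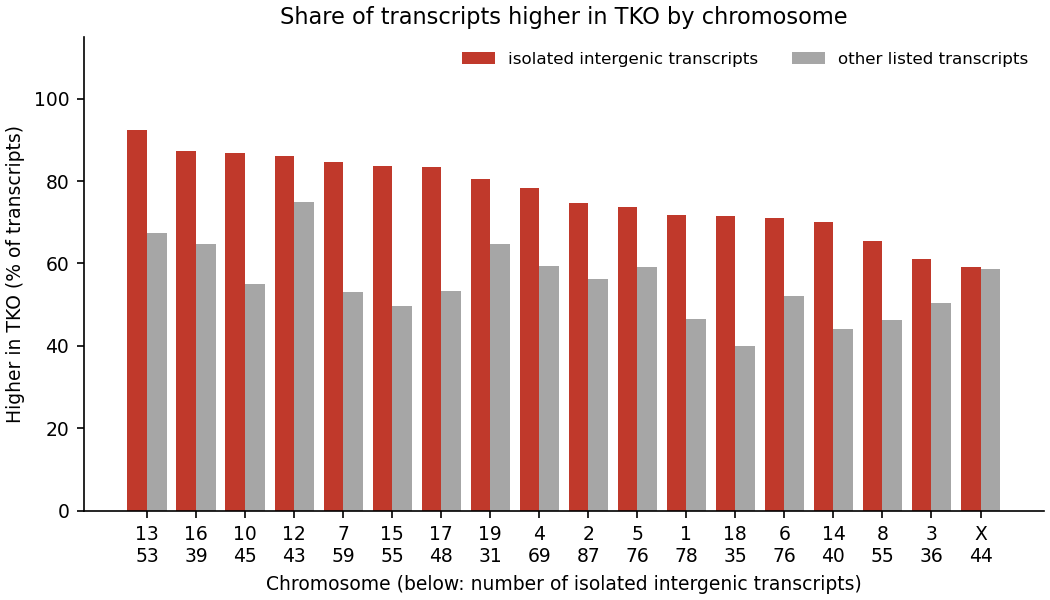
Bars give the share of transcripts higher in TKO (%) on each chromosome, in red for isolated intergenic transcripts and in grey for the other listed transcripts, with the number of isolated intergenic transcripts under each chromosome. The red bars run from 92.5% on chromosome 13 to 59.1% on chromosome X.

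Pairs with the same gene name gave an internal comparison. Of 146 pairs, 138 (94.5%) had both transcripts listed in the same direction, 106 both higher and 32 both lower, and 8 were opposite. As a background, other listed transcripts shared the direction of their nearest listed neighbour in 95.5% of cases within 10 kb and in 71.1% beyond it. The agreement is therefore not read as a trait of shared names. The median difference within a pair was 0.64 on the log2 scale. In 81 pairs both transcripts lay on the same strand, with a median gap of 9297 bp. In 47 pairs they were divergent, meaning that the centre of the minus-strand transcript lay left of that of the plus-strand transcript, and 18 were convergent. The 47 divergent pairs had starts a median of 3928 bp apart, and 39 were both higher.

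In 12 divergent pairs the starts lay within 1 kb. In all 12 both transcripts shared a direction, 9 pairs higher and 3 lower. The transcripts of 7 of these pairs did not overlap and ran away from each other, and all 7 pairs were higher. Those of the other 5 overlapped, with 2 pairs higher and 3 lower. The pair named for Flt1 had 7.58 on the minus strand and 4.89 on the plus strand, with starts 388 bp apart. The pair named for Wapl, the factor that releases cohesin from chromatin, had 3.03 and 3.94 with starts 53 bp apart. The pair named for Arl5a had 3.25 and 3.56 with starts 309 bp apart, and the minus- and plus-strand transcripts named for Gnpda1 each had 1.39. The lower pairs, all with overlapping transcripts, were those named for Clca4a (-2.20 and -3.53), Tnrc18 (-4.15 and -1.67) and Ass1 (-1.54 and -1.18). The size of the change thus differed between strands by 0.00 for Gnpda1 to 3.19 for Pfdn4, whose plus-strand transcript had 1.85 and held within it a minus-strand transcript with 5.04.

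Among the 8 opposite pairs, that named for Tenm3, a teneurin of synaptic wiring, had 4.77 and -1.39, both on the same strand and 96963 bp apart. The 8 opposite pairs had transcripts that lay apart, from 11465 bp for Cox20 to 627725 bp for Lhfpl3.

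**Figure D3:**
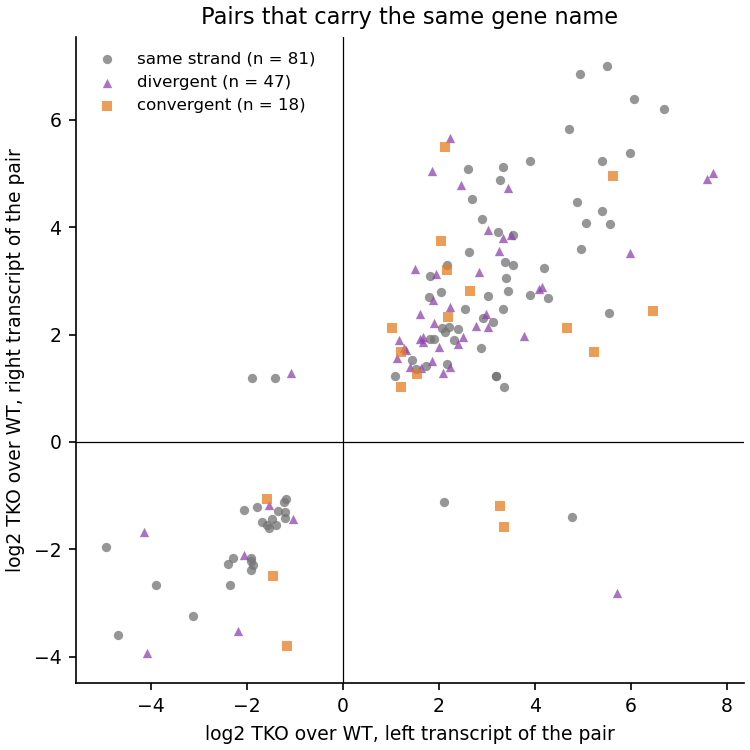
Each point is 1 of 146 pairs of isolated intergenic transcripts with the same gene name, by the log2 TKO over WT of the left and of the right transcript on the chromosome, with the relative strands as symbols. The upper right holds 106 pairs and the lower left 32, and 8 pairs lie in the other corners.

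Members were next grouped by the function of the gene they are named for, with lists based on gene families. The counts describe where the transcripts lay, against 76.6% higher over all members. All 6 members named for genes of the pluripotency network were higher, with a median log2 fold change of 2.01. A pair of overlapping transcripts lay downstream of Klf4, a factor that sustains self-renewal, with 2.78 and 2.16, and a transcript 21307 bp upstream of Sall4, another stem cell factor, had 2.63. The others were named for Prdm14 (1.86), Tbx3 (1.44) and Tet2 (1.21). Of the 4 members named for m6A pathway genes, the pair named for Igf2bp2, an m6A reader, had 2.70 and 1.79. The transcript named for Ythdc1, the nuclear m6A reader, had 2.47 and lay 15323 bp downstream of it, and the fourth, named for Ythdc2, had -1.64. No member was named for a linker histone or microRNA gene.

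Developmental regulators made up larger groups. Of 33 members named for homeobox, Sox, Fox, Pax, T-box, GATA, bHLH or similar developmental factors, 26 were higher. That named for En1, a midbrain and limb homeobox factor, had 5.87 and lay over 2610027F03Rik. That named for Tfap2c, a factor of germline and trophoblast, had 5.66 over 66159 bp of sequence without an annotated gene. The lower ones included both transcripts named for Hes1 (-4.94 and -1.96). Of 12 members named for Wnt, FGF, BMP, TGF-beta, Notch or Hedgehog signalling genes, 9 were higher. They were led by transcripts near Fgfr1, a fibroblast growth factor receptor, with 6.03, and Sfrp1, a secreted Wnt inhibitor, with 3.73. The transcript near Smad4, the shared mediator of TGF-beta signalling, had 2.86.

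Genes of neurons and the senses also gave names to members. Of 25 members named for cadherin, protocadherin, contactin or axon guidance genes, 16 (64.0%) were higher. The largest changes among them were listed for the transcripts named for Robo2, a receptor for Slit guidance cues (6.85), Epha7, an ephrin receptor (6.62), and Cdh26 (5.74). The Epha7 transcript lay 615034 bp from its named gene. Of 12 members named for ion channels 10 were higher, among them those for the potassium channel Kcnk5 (4.08), the glutamate receptor subunit Grin2a (3.60) and the sodium channel Scn3a (3.07). Of 18 members named for olfactory or vomeronasal receptors 15 were higher, including Vmn1r191 (6.24), Vmn1r189 (5.83) and Olfr283 (4.29). The first of these ran antisense over the Vmn1r191 gene. Receptor genes of this kind have near-identical copies, so reads may have been divided among them.

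Of 26 members named for zinc finger proteins 21 were higher. They included a 777-bp transcript antisense to Zfp72 (5.79) and one 2538 bp upstream of Zkscan3 (4.65), while Zfp97 had -4.85. Of 22 members named for solute carriers 17 were higher, led by a 515-bp transcript near Slc25a28, a mitochondrial iron importer, with 5.75. The pair downstream of Slc18a1, the vesicular monoamine transporter, had -3.90 and -2.66. Of 59 members with predicted or uncharacterised names, 35 (59.3%) were higher. None of these groups was tested, and their median log2 values ran from 1.23 for predicted names to 2.74 for the olfactory and vomeronasal group.

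The rule that chose the members used no MapR value, but it was set with earlier results of these data known. After peaks that overlapped an MNase-only control peak were removed, the lists held 21929 and 6166 peaks in WT RNH replicates 1 and 2, and 24937 and 6010 in TKO replicates 1 and 2. At least 1 RNH peak overlapped 22.7% and 6.40% of the members in the WT libraries and 20.9% and 6.81% in the TKO libraries. Of all 4842 listed transcripts, 31.9% and 9.23% held a peak in WT 1 and WT 2, and 32.6% and 8.76% in TKO 1 and TKO 2. Beside a changed gene, intergenic transcripts held one in 22.6% and 9.93% (WT) and in 23.6% and 9.43% (TKO). The members' share thus followed the replicate number, with its longer and shorter lists, and the genotypes overlapped. The mean was 14.6% ± 11.5 (SD, n = 2) in WT and 13.9% ± 10.0 (SD, n = 2) in TKO, a TKO-minus-WT difference of -0.671 percentage points (two-sided exact permutation p = 1.0). With 2 libraries against 2, the smallest p that this test can give is 0.333. In the MNase-only libraries 1.34% (WT) and 1.44% (TKO) of members held a peak.

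As a share of each library's peaks, which allows for list length, 1.12% and 1.02% of WT peaks and 0.946% and 1.11% of TKO peaks lay in members. These values overlapped, and the difference was -0.0412 percentage points (two-sided exact permutation p = 0.667). Per Mb of transcript, members held 20.1, 5.14, 19.3 and 5.47 peaks in WT 1, WT 2, TKO 1 and TKO 2, and other intergenic transcripts 15.6, 5.26, 16.4 and 6.07. The log2 ratio of members to other intergenic transcripts was 0.364, -0.0328, 0.231 and -0.152, with a mean of 0.102. It was above 0 in 2 of 4 libraries, those of replicate 1 (two-sided exact sign-flip permutation p = 0.5, smallest possible 0.125). Among transcripts outside every annotated gene the mean was 0.614 (p = 0.125 in the same exact test). With lists cut to equal length before control peaks were removed, the mean was 0.0013 (p = 1.0 in that exact test). It was -0.0098 with a -log10 q of at least 5 and -0.0139 with at least 50% of a peak inside, each with p = 1.0 in that exact test.

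The next comparison asked whether RNH peaks followed the direction of the cheRNA change. Of the 742 higher members, 20.9% and 6.74% held a peak in WT 1 and WT 2, and 21.4% and 8.22% in TKO 1 and TKO 2. Of the 227 lower members, the shares were 28.6% and 5.29% in WT 1 and WT 2, and 19.4% and 2.20% in TKO 1 and TKO 2. These lower shares rest on 65 and 12 members in WT and on 44 and 5 in TKO, so those of replicate 2 hang on few transcripts. The higher-minus-lower difference was -7.74 and 1.45 percentage points in the WT libraries and 2.05 and 6.02 in the TKO libraries, so both TKO values lay above both WT values. The TKO-minus-WT change of this difference was 7.18 percentage points (two-sided exact permutation p = 0.333, the smallest possible), with 9.79 in replicate 1 and 4.57 in replicate 2. It was 1.98 with lists cut to equal length before control peaks were removed (p = 1.0 by the same exact test). With a -log10 q of at least 5 it was 2.75 (p = 1.0 by the same exact test). Without WT replicate 1 it was 2.58, and without WT replicate 2 it was 11.8.

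**Figure D4:**
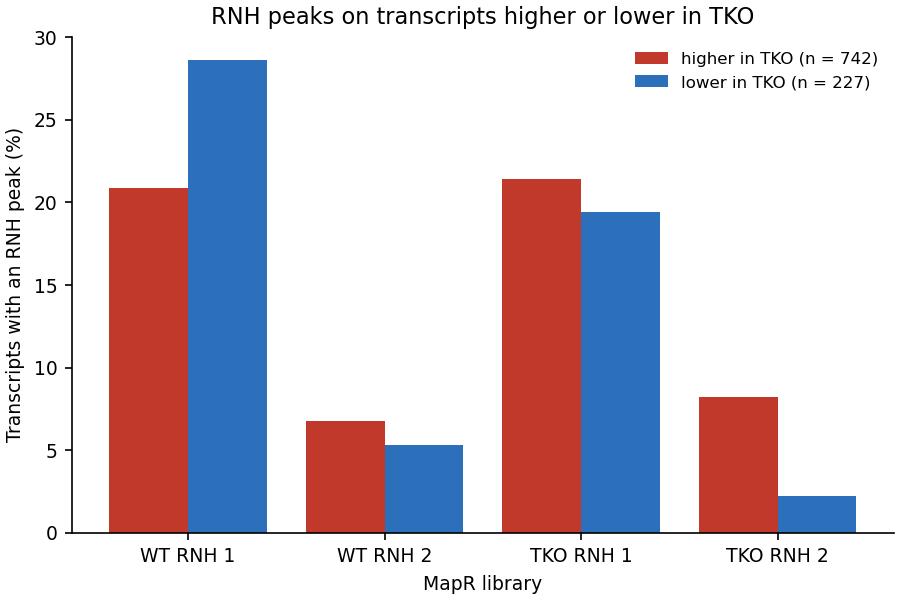
Bars give the share (%) of isolated intergenic transcripts higher (red) and lower (blue) in TKO that overlapped an RNH peak in each of 4 MapR libraries, after removal of control peaks. In WT replicate 1 the blue bar is taller (28.6% against 20.9%), and in the other 3 libraries the red bar is taller.

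Longer members held peaks more often in every library. In WT replicate 1 the share went from 11.1% of the 243 shortest to 36.0% of the 242 longest members, and in TKO replicate 1 from 9.47% to 35.1%. In replicate 2 it went from 2.47% to 9.09% in WT and from 4.12% to 8.68% in TKO. Among the 485 members of middle width, 21.2% of higher and 13.9% of lower members held a peak in TKO 1, and 22.0% and 21.3% in WT 1. In replicate 2 the shares were 8.49% and 2.78% (3 lower members) in TKO, and 7.43% and 5.56% in WT. The TKO-minus-WT change of the higher-minus-lower difference was 5.23 percentage points in these members.

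Peaks gathered at the starts of the members. Within 1 kb of the start, 16.3%, 4.44%, 16.1% and 5.37% of members held a peak in WT 1, WT 2, TKO 1 and TKO 2. Around the middle the shares were 5.78%, 1.96%, 5.16% and 2.06%, and around the end 3.20%, 1.24%, 3.92% and 1.24%. The order start, middle, end was the same in all 4 libraries. Starts within 1 kb of an annotated gene start, 167 members, had a peak in 26.9%, 7.78%, 24.6% and 7.78%. The 802 starts farther away still had one in 14.1%, 3.74%, 14.3% and 4.86%.

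In 250-bp bins, the highest share for higher members in replicate 1 fell just upstream of the start, from -250 to 0 bp, with 8.49% in WT and 9.16% in TKO. For lower members that bin held peaks in 14.1% of transcripts in WT replicate 1 and 7.49% in TKO replicate 1. In replicate 2 that bin held peaks in 2.64% of lower members in WT and 0.881% in TKO. The order reversed in the next bin, from 0 to 250 bp, with 1.32% in WT and 1.76% in TKO. For higher members the replicate 2 shares from -250 to 0 bp were 1.89% in WT and 4.18% in TKO.

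**Figure D5:**
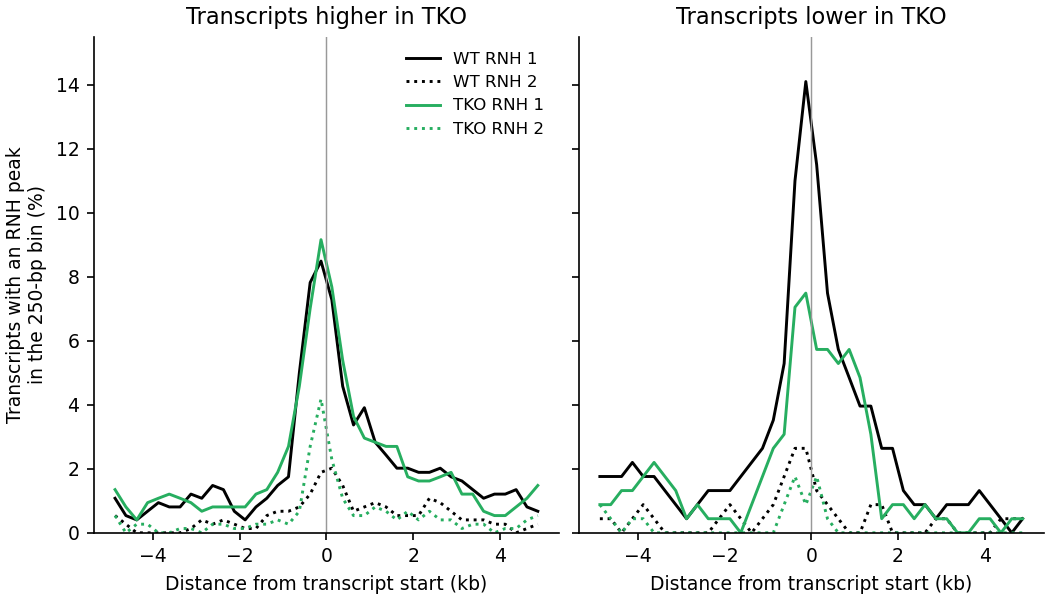
Lines give the share (%) of isolated intergenic transcripts with an RNH peak in each 250-bp bin from 5 kb before to 5 kb after the transcript start, for transcripts higher (left) and lower (right) in TKO; black is WT, green is TKO, solid is replicate 1 and dotted is replicate 2. The replicate 1 lines peak just before the start, at 8.49% in WT and 9.16% in TKO on the left and at 14.1% and 7.49% on the right.

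Over all 4 RNH libraries, 654 members (67.5%) held no peak, 162 held one in 1 library, 96 in 2, 31 in 3 and 26 in all 4. The share without any peak was not computed for all listed transcripts, so nothing is read from the 67.5%. The 26 made up 2.68% of members, near the background of 3.1% of all 4842 listed transcripts. Of these 26, 25 (96.2%) were higher in TKO and the exception was the Papss1 transcript (-1.20). Of all 969 members, 76.6% were higher. Of all 150 listed transcripts with a peak in all 4 libraries, gene transcripts and these 26 included, 56.0% were higher. Whether the peaks go with direction in these few members was not tested. The other patterns did not all lean the same way. No peak was held by 68.3% of the 742 higher members and by 64.8% of the 227 lower ones. A peak in 2 libraries was held by 61 higher and 35 lower members, and a peak in 3 by 27 and 4. The 26 stood for 24 separate loci, since the transcripts named for Rab3c and for Ctla4 each formed an overlapping pair that shared its peaks. A peak in both TKO libraries and in neither WT library was found on 4 members, against 0.599% of all listed transcripts (29 of 4842). They were named for Mbip (2.81), Notch3 (1.25), Mmadhc (3.11) and Abhd11 (-2.28). A peak in both WT libraries and in neither TKO library was found on 9 members, against 0.867% of all listed transcripts (42 of 4842). They were named for Six4 (1.45), Tcl1 (1.45), Ankrd55 (1.10), Rbfox2 (1.16), Cpn1 (2.50), Gm12887 (1.24), Glod5 (2.49), Snx16 (-1.07) and Tnrc18 (-1.67). Both counts were few, and members of both directions occurred in each.

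Members with a peak in all 4 libraries were ranked by the lowest of their 4 peak fold enrichments, and the first 6 had log2 fold changes of 1.03 to 2.47. The transcript antisense to Pgrmc2, a haem-binding membrane protein, at chr3:41082291-41092226 had a log2 fold change of 1.26. Its highest peak fold enrichment, as the authors' peak lists give it, was 4.95 and 4.93 in WT 1 and WT 2, and 4.90 and 6.38 in TKO 1 and TKO 2. The Nmbr transcript, over the long non-coding RNA C330004P14Rik at chr10:15791736-15817615, had 1.03, and its enrichments were 4.84, 7.07, 4.46 and 8.63 in the same order. For this transcript the replicate 2 values exceeded the replicate 1 values in both genotypes. The Ythdc1 transcript had enrichments of 4.68, 5.09, 4.20 and 4.20. The Actl6a transcript, antisense to a subunit of BAF chromatin remodellers, had a log2 fold change of 1.77 and enrichments of 4.55, 4.16, 4.28 and 5.13. The transcripts named for Csf2ra (2.33) and Plpp1 (1.81) completed the 6. Another ranking would give another order: the Samd9l transcript, with enrichments of 4.83, 3.94, 5.21 and 5.19, exceeded the Plpp1 transcript in 3 of 4 libraries. The 2 printed windows of this group differ, with 10 CpG at the Pgrmc2 start and 0 at the Nmbr start.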

How the data were processed

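The cheRNA values are the log2 fold changes of the authors' deposited table, which lists changed transcripts only and gives no p-value or value per sample. The sign was set from 3 deleted H1 genes. MapR peak lists were deposited by the authors per library and hold, per the file layout, the fold enrichment of each peak (a ratio), the -log10 p and -log10 q, and a score. The submitters' processing notes name mm10 as the build and DESeq2, MACS2, BWA, TopHat2, bedtools and SAMtools as tools. The sources used here give neither their versions nor the peak-calling options, and depth is unknown. No counting interval can therefore be given.

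Positions came from GENCODE M21 and sequences from RefSeq's GRCm38.p6. RNH peaks that overlapped an MNase-only peak of either genotype were removed, and an overlap was at least 1 bp. Libraries were compared with two-sided exact permutation tests in Python 3.11.15 with numpy 2.4.6 and scipy 1.17.1, and the scripts were tested on simulated data. The labels do not say that replicates are separate cultures, so p-values measure only the spread between these samples. Named members were the 6 highest and 6 lowest changes, the 3 longest, the 4 nearest the threshold, the 6 whose lowest peak enrichment over all 4 libraries was highest, up to 3 per gene family and the 2 most opposite pairs, of which 1 is not reported here; others named were chosen after their values were seen. The members and lists were chosen with earlier results of these data known. The series holds 32 samples, and the other assays were not analysed here.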

Additional observations from a re-analysis of the deposited data

How the results depend on the processing

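The share of members higher in TKO was 79.3% outside every annotated gene and 85.1% at an absolute log2 of at least 2, with median log2 values of 2.34 and 2.95. The AATAAA density, transcribed minus opposite strand, was -0.0869 per kb in the first 5 kb, 0.0034 outside every annotated gene and -0.0426 without repeat-marked bases, and that of GGTAAG was 0.0469 in the first 5 kb. The log2 peak density of members over other intergenic transcripts was -0.0098 with a -log10 q of at least 5 and -0.0139 with at least 50% of a peak inside. The share of RNH peaks in members changed by 0.0098 percentage points from WT to TKO outside every annotated gene. The cause of these shifts was not tested.

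Leaving out each MapR library in turn gave a TKO-minus-WT share of members with a peak of -8.82 to 7.48 percentage points, a share of peaks in members of -0.125 to 0.043, a higher-minus-lower difference of 2.58 to 11.8, and a log2 density ratio of 0.0152 to 0.187. The share of members with a peak was 7.48 without WT replicate 1 and 6.40 without TKO replicate 2, against -7.74 without TKO replicate 1. The share of peaks was 0.0089 without WT replicate 1 and 0.043 without TKO replicate 1. With a replicate block the differences stayed at -0.671, -0.0412 and 7.18, with exact permutation p-values of 1.0, 1.0 and 0.5 (smallest possible 0.5); 2 pairs do not show whether the numbers pair the libraries. No library could be left out of the cheRNA table. The settings with no other listed transcript within 10 kb and with the middle range of widths were chosen after seeing the data. No MapR test could pass 0.05 at these library numbers, so a kept side of the threshold says nothing of stability. Unknown depth, peak lists that differ in length between replicates and 2 libraries per genotype limit what MapR can show.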
